A study of Mus musculus with 8 samples.

Results

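Keratins are the intermediate filament proteins of epithelial cells. A filament forms only from pairs of 1 acidic type I and 1 basic type II keratin, so the genes are expressed in partner sets that differ with the kind of epithelium. Simple epithelia, such as the lining and glands of the uterus, carry Krt8 and Krt18 with Krt19 and Krt7. Stratified epithelia, such as those of the vagina and the skin, carry Krt5 and Krt14 in the basal layer and other pairs in the layers above. NR2F2 (COUP-TFII) is an orphan nuclear receptor that in the endometrium is known mainly from stromal cells, which signal to the epithelium under progesterone.

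The keratins were taken as every gene whose symbol is Krt followed by digits alone. These were 51 of 24963 genes, of which 5 belong to simple epithelia, 18 to stratified epithelia, 26 to hair and its root sheaths and 2 (Krt23 and Krt222) to none of these. Their mRNA was compared between 4 Nr2f2 f/f (control) and 4 Nr2f2 d/d libraries made from uterine tissue at gestation day 3.5 (GD3.5), in order to see how loss of Nr2f2 bears on the keratin set of the uterus. Both groups are homozygous for the Nr2f2 flox allele (Nr2f2 flox/flox). The Nr2f2 d/d mice carry in addition Pgr Cre/+, a knock-in that expresses Cre recombinase in cells with progesterone receptor and takes the place of 1 Pgr allele, and the Nr2f2 f/f mice carry no Cre. The labels give the strain C57B6/J, mating at 8 weeks of age and no treatment for all samples, and the females were mated with vasectomized males, so that no embryos were present. The Cre is active in epithelium, stroma and muscle alike, and whole tissue was sequenced. In such bulk samples, fewer cells of a type and less RNA per cell cannot be told apart.

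Nr2f2 itself was 21.8 to 25.7 FPKM (fragments scaled to gene length and to the total of the library) in Nr2f2 f/f and 6.90 to 9.74 FPKM in Nr2f2 d/d. On the log2(FPKM + 0.5) scale used for all tests it fell by 1.39 ± 0.12 (SE, n = 4 per group, adjusted p = 0.00549, limma with Benjamini-Hochberg adjustment over 14323 genes). The libraries held 61500000 to 78150000 fragments in Nr2f2 f/f and 61900000 to 92400000 in Nr2f2 d/d, as recovered from the low values of short genes. The epithelial marker Epcam was present at 68.7 to 122 FPKM in all 8 libraries. The 4th Nr2f2 d/d library stood apart from the other Nr2f2 d/d libraries in several keratins, although its Nr2f2 level was 9.74 FPKM, so values without it are given beside the results that it moves most. The summed smooth muscle markers were also highest in this library, at 2561 FPKM against 1297 to 1825 FPKM in Nr2f2 f/f. Its summed stromal markers, at 1953 FPKM, were the lowest in Nr2f2 d/d but above the 1342 to 1617 FPKM of Nr2f2 f/f. Its summed epithelial markers, at 842 FPKM, were the highest of all 8 libraries. The part of these cell types in its keratin values was not tested.

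The keratin genes lie in clusters, with type I genes on chromosome 11 and type II genes on chromosome 15, and Krt18, a type I gene, next to its partner Krt8 on chromosome 15. The promoter windows of 5 keratins on which the results turn are shown, so that the partner genes of simple epithelium (Krt8 and Krt18), a basal keratin (Krt5) and the keratins with lower levels in Nr2f2 d/d (Krt12 and Krt23) can then be read side by side. Each window runs from 250 bases before to 50 bases after the annotated start, 5′ to 3′ on the gene's strand, from RefSeq on GRCm38.p6. The positions are chr15:102004293-102004592 (minus strand) for Krt8, chr15:102027966-102028265 (plus strand) for Krt18, chr15:101712856-101713155 (minus strand) for Krt5, chr11:99422210-99422509 (minus strand) for Krt12 and chr11:99493071-99493370 (minus strand) for Krt23. Capitals mark AGGTCA, the half-site bound by nuclear receptors of the NR2F2 kind, or TATAAA, the TATA box letters, on either strand.
Krt8: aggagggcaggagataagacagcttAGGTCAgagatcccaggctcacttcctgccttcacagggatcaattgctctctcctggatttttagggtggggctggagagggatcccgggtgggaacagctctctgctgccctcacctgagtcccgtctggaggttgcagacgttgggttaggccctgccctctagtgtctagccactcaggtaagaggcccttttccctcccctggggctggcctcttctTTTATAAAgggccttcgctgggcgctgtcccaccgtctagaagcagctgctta
Krt18: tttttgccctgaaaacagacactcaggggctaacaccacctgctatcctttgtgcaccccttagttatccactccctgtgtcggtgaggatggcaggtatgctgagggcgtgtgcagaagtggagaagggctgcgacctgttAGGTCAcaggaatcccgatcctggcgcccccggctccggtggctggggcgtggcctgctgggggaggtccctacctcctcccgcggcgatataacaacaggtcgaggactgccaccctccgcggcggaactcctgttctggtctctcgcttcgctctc
Krt5: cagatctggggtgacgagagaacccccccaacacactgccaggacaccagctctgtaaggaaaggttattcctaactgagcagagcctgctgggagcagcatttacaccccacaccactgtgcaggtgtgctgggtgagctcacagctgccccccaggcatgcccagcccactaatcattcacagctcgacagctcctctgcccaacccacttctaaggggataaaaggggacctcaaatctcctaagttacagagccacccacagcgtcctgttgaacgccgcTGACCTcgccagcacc
Krt12: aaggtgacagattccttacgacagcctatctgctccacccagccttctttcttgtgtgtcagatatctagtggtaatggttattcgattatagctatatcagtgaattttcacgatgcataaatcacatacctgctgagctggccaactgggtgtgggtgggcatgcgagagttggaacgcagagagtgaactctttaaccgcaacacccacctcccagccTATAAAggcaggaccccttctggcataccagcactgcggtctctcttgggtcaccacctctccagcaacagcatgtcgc
Krt23: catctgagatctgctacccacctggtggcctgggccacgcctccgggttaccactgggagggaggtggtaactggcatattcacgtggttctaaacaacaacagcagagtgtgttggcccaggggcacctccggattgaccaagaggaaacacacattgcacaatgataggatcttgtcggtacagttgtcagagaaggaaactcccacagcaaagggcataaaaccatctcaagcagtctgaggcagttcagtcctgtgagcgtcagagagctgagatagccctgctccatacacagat

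Counted from the annotated start, AGGTCA began at -225 in Krt8 and at -108 in Krt18, and its reverse complement at 34 in Krt5. TATAAA began at -29 in Krt12, and in Krt8 it overlapped its reverse complement close to the start. Neither motif was found in the Krt23 window. The RefSeq table held 36 windows for 35 keratins. Among the 36 windows, 27.8% held AGGTCA on either strand, against 16.3% of all 32851 windows of the same length. TATAAA was in 50% of the keratin windows and 13.6% of all windows, and GGGCGG, a GC box, in 5.56% and 35.7%. These matches describe letters only and say nothing about binding. Krt15 and Krt19 had no window in the table. In GENCODE vM21, an annotation of the mm10 build that the files use, Krt15 (chr11:100131758-100135928) and Krt19 (chr11:100140810-100148665) are neighbours on the minus strand.

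Of the 51 keratins, 14 reached a mean of 0.5 FPKM over the 8 libraries and were tested, 37 lay below it, and 5 of these (Krt31, Krt34, Krt72, Krt73 and Krt74) were listed at 0 in every library. Krt8 and Krt15 were higher in Nr2f2 d/d at an adjusted p under 0.05 and Krt12 was lower, where 2.62% of all genes tested passed in either direction, 1.09% higher and 1.53% lower. At the threshold the study used, an unadjusted p under 0.05 with a fold change of at least 1.4, Krt5, Krt7, Krt8, Krt13, Krt15 and Krt19 were higher and Krt12 and Krt23 lower, 8 of 14 keratins against 8.8% of all genes tested (4.7% higher and 4.1% lower). The median log2 fold change was 0.60 over the 14 keratins and -0.02 over all genes tested. Krt5, Krt13, Krt15 and Krt87 passed the filter through their Nr2f2 d/d level alone and Krt12 through its Nr2f2 f/f level alone, so these 5 had to differ in their means in order to be tested. Over the other 9 keratins the median was 0.37, and 3 were higher (Krt7, Krt8 and Krt19) and 1 lower (Krt23) at the study threshold, with Krt8 alone at an adjusted p under 0.05.

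**Figure D1:**
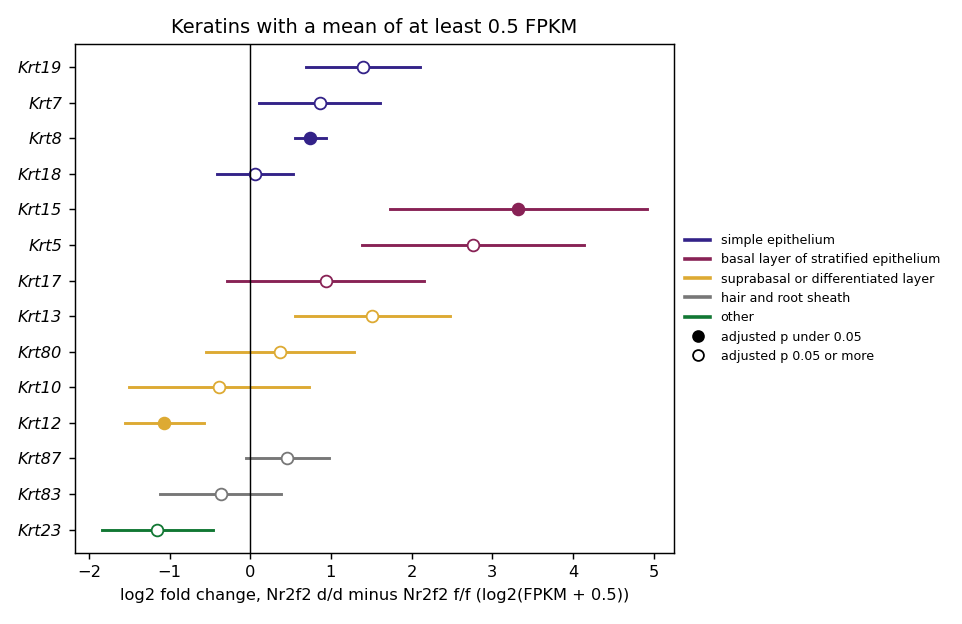
Log2 fold change (Nr2f2 d/d minus Nr2f2 f/f, on log2(FPKM + 0.5)) of the 14 tested keratins, with the 95% interval of the limma fit as a line and the keratin class as color. Filled points passed an adjusted p of 0.05 (Krt8, Krt15 and Krt12); Krt18 sits at 0.06 and Krt15 at 3.32.

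Krt8, the type II keratin of simple epithelia, was 108, 111, 122 and 116 FPKM in the 4 Nr2f2 f/f libraries and 200, 170, 208 and 191 FPKM in the 4 Nr2f2 d/d libraries. The groups did not overlap, and each was tight. Group means were 114 ± 6.31 FPKM and 192 ± 16.2 FPKM (SD, n = 4 per group). Krt8 was thus higher by 0.74 ± 0.084 (SE) on the log2 scale, with an adjusted p of 0.00829 by limma. Leaving out each library in turn gave 0.71 to 0.80, with adjusted p from 0.0193 to 0.0389. The ratio of Krt8 to Epcam, a surface protein of many but not all epithelial cells, was 0.883 to 1.78 in Nr2f2 f/f and 1.89 to 2.29 in Nr2f2 d/d, again without overlap. Epcam differed little between the groups (log2 fold change 0.06), and relative to all 12 epithelial markers the log2 fold change of Krt8 was smaller, at 0.48 (adjusted p = 0.0295), just under the 1.4-fold the study asked for.

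Krt18, the type I partner of Krt8, was 125, 181, 104 and 98.2 FPKM in Nr2f2 f/f and 128, 107, 124 and 162 FPKM in Nr2f2 d/d. The groups overlapped almost fully, and the 2nd Nr2f2 f/f library was the highest of all. Krt18 differed by 0.06 ± 0.21 (SE, 95% interval -0.41 to 0.53, adjusted p = 0.889), and the sign turned in some fits, to -0.07 after quantile normalization, -0.20 relative to the epithelial markers, and -0.02, -0.05 and -0.05 without the 3rd Nr2f2 f/f, the 4th Nr2f2 f/f and the 4th Nr2f2 d/d library. The ratio of Krt8 to Krt18 was 0.86, 0.617, 1.17 and 1.19 in Nr2f2 f/f and 1.56, 1.58, 1.68 and 1.18 in Nr2f2 d/d. Thus 3 Nr2f2 d/d libraries lay above all controls and the 4th lay at the level of the highest controls. The mean log2 ratio differed by 0.68 (two-sided exact permutation p = 0.0571, 4 of 70 arrangements, n = 4 per group), a comparison chosen after the values were seen.

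Krt19, a type I keratin of simple epithelia that lacks most of the tail of its relatives, was 44.3, 38.9, 93.8 and 85.3 FPKM in Nr2f2 f/f and 177, 147, 206 and 126 FPKM in Nr2f2 d/d. The groups did not overlap, but the controls fell into a low and a high pair. Its log2 fold change of 1.396 ± 0.31 (SE) had an adjusted p of 0.0559 by limma, and 0.0512 to 0.14 with each library left out. Relative to the epithelial markers it was smaller and its SE larger, at 1.14 ± 0.35, with an adjusted p of 0.04. That scaling moved the median of all genes to -0.28, so this adjusted p cannot be set against the main one. Krt19 stood below Krt18 in all 4 Nr2f2 f/f libraries and above it in 3 of the 4 Nr2f2 d/d libraries, the 4th being the exception at a ratio of 0.777.

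Krt7, the type II keratin of ducts and glands, was 44.8, 73.1, 35.5 and 30.1 FPKM in Nr2f2 f/f and 71.5, 62.5, 135 and 65.3 FPKM in Nr2f2 d/d. Its groups overlapped through the 2nd Nr2f2 f/f library, and the 3rd Nr2f2 d/d library was far above the rest. Krt7 was 0.86 ± 0.33 (SE) higher on the log2 scale, with an adjusted p of 0.189 by limma and 0.61 to 1.11 with each library left out. Its call at the study threshold was lost after quantile normalization, relative to the epithelial markers and with the title numbers as a replicate block. It was also lost without the 1st, 3rd or 4th Nr2f2 f/f or the 3rd Nr2f2 d/d library. Krt20, a keratin of gut and urinary tract lining, lay below the filter, at 0.341, 0.217, 0.257 and 0.167 FPKM in Nr2f2 f/f and 0.091, 0.065, 0.682 and 0.204 FPKM in Nr2f2 d/d. Its groups overlapped.

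**Figure D2:**
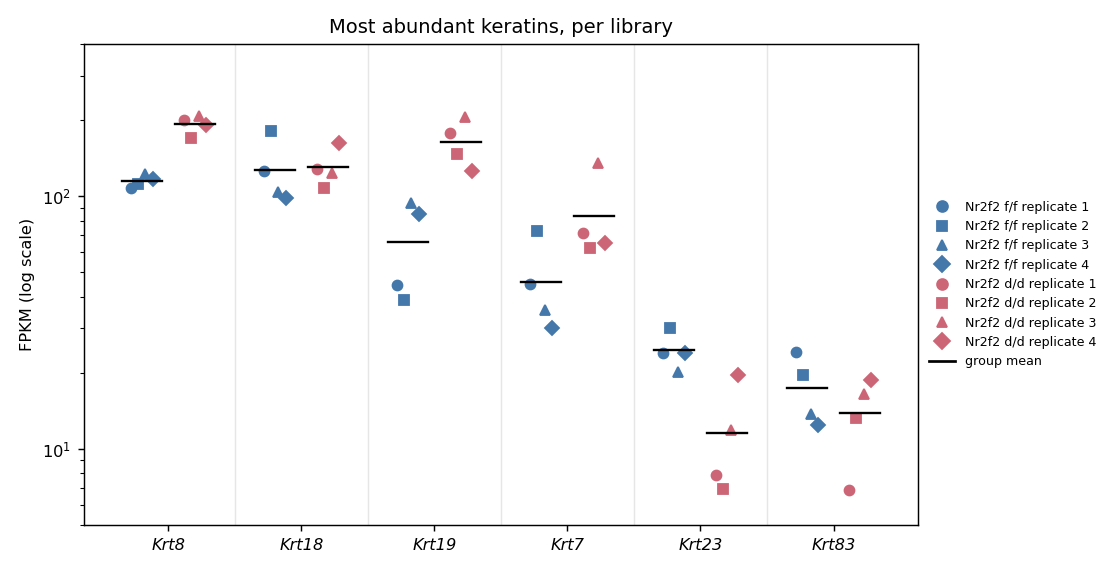
FPKM (log axis) of the 6 most abundant keratins in each of the 8 libraries, with the mean of each group as a line and the replicate as the symbol. Krt8 separates fully between the groups, at 108 to 122 FPKM against 170 to 208 FPKM, while Krt18 overlaps.

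Simple-epithelial keratins made up nearly all keratin mRNA. Summed over the 51 genes, the level was 381 to 466 FPKM in Nr2f2 f/f (mean 407 ± 40.3, SD, n = 4) and 537 to 734 FPKM in Nr2f2 d/d (622 ± 82.2), with no overlap. The 5 simple-epithelial genes held 84.6% to 89.0% of this sum in Nr2f2 f/f and 90.7% to 93.6% in Nr2f2 d/d. Krt18 held 25.8% to 38.7% of keratin FPKM in Nr2f2 f/f and 16.9% to 27.0% in Nr2f2 d/d, and Krt19 held 8.34% to 23.4% and 21.0% to 28.7%. Type I genes summed to 202 to 256 FPKM in Nr2f2 f/f and 281 to 362 FPKM in Nr2f2 d/d, and type II genes to 161 to 210 and 256 to 372 FPKM. The ratio of type II to type I was therefore 0.733 to 0.888 and 0.869 to 1.03, which overlapped. These sums are a description and were not tested.

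**Figure D3:**
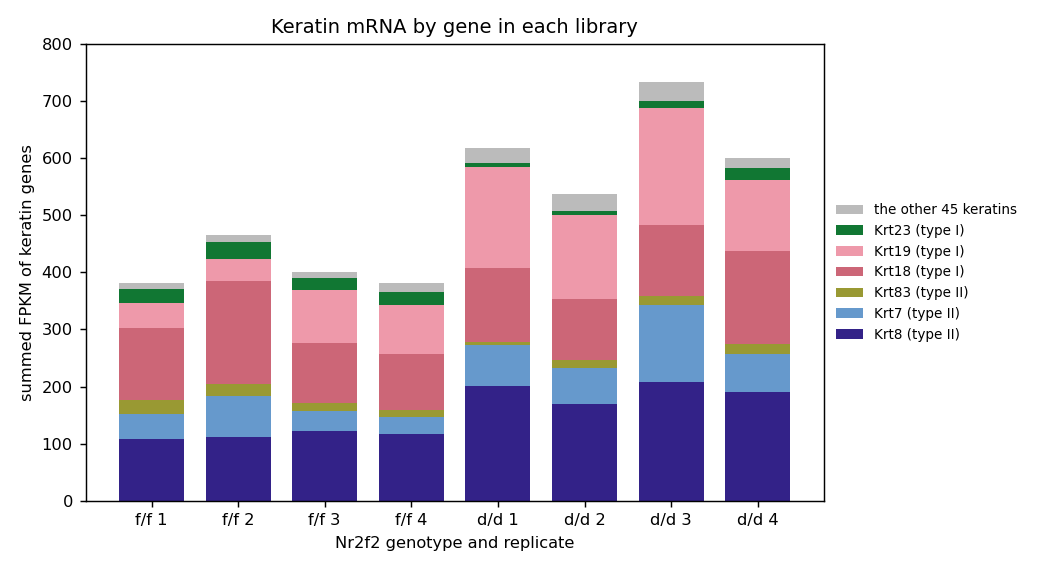
Summed FPKM of all 51 keratins in each library, stacked by gene with type II genes below type I genes. The totals are 381 to 466 FPKM in Nr2f2 f/f and 537 to 734 FPKM in Nr2f2 d/d, and the Krt8 and Krt19 segments are larger in every Nr2f2 d/d library than in any Nr2f2 f/f library.

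Of the basal keratins, Krt5, Krt14 and Krt15 were at or below 0.358 FPKM in every control and higher in every Nr2f2 d/d library, with the 4th Nr2f2 d/d library the lowest of its group for each. Krt5, the type II keratin of basal cells, was 0.014, 0.007, 0.029 and 0 FPKM in Nr2f2 f/f, or about 2, 1, 5 and 0 fragments, and 4.81, 5.65, 4.86 and 0.322 FPKM in Nr2f2 d/d, or about 654, 883, 987 and 64 fragments. The groups did not overlap. A count of 3 fragments corresponds to 0.0148 to 0.0222 FPKM for this gene, so the controls lay near the limit that a count of 0 allows. The log2 fold change, which the added 0.5 FPKM holds down for so low a gene, was 2.76 ± 0.60 (SE, adjusted p = 0.0529, limma), and 3.45 (adjusted p = 6.36e-05) without the 4th Nr2f2 d/d library. With 0.1 FPKM added in place of 0.5 it was 4.63 (adjusted p = 0.0276), and with 1 FPKM added 2.04 (adjusted p = 0.0647). With any other library left out it was 2.48 to 2.77, at adjusted p of 0.0882 to 0.147.

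Krt15, a type I keratin of basal cells and of the hair bulge, was 0.009, 0, 0.358 and 0.104 FPKM in Nr2f2 f/f, or about 1, 0, 49 and 11 fragments. In Nr2f2 d/d it was 7.78, 11.2, 10.9 and 0.704 FPKM, or about 851, 1407, 1776 and 113 fragments. It was the highest basal keratin in the first 3 Nr2f2 d/d libraries, and the 4th lay above the highest control by less than the other libraries of its group. The log2 fold change was 3.32 ± 0.69 (SE, adjusted p = 0.0491, limma). This call was kept without the 4th Nr2f2 d/d library (4.10, adjusted p = 0.00192) and lost when any 1 of the other 7 libraries was left out, with adjusted p up to 0.139. It was also lost with 1 FPKM added, without a filter, with a mean of at least 1 FPKM, after quantile normalization and in a robust fit, at adjusted p of 0.0510 to 0.0701. With 0.1 FPKM added the value was 4.89 and the call was kept (adjusted p = 0.0346).

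Krt14, the type I partner of Krt5, was 0.202, 0.066, 0.09 and 0.095 FPKM in Nr2f2 f/f and 1.01, 1.36, 0.922 and 0.256 FPKM in Nr2f2 d/d. Its groups did not overlap, and its mean fell just under the filter. Without a filter its log2 fold change was 1.11 (adjusted p = 0.0832, limma). Krt5 stood at 4.15 to 5.27 times Krt14 in the first 3 Nr2f2 d/d libraries and 1.26 times in the 4th, and Krt15 at 1.62 to 2.24 times Krt5 in all 4. Krt17, a keratin of basal and of stressed epithelium, did not follow this pattern. It was 1.6, 2.14, 0.058 and 0.073 FPKM in Nr2f2 f/f and 1.21, 2.20, 1.63 and 1.92 FPKM in Nr2f2 d/d, so that 2 controls were as high as the mutants (log2 fold change 0.94 ± 0.53, SE; adjusted p = 0.347, and 0.59 to 1.34 with each library left out).

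**Figure D4:**
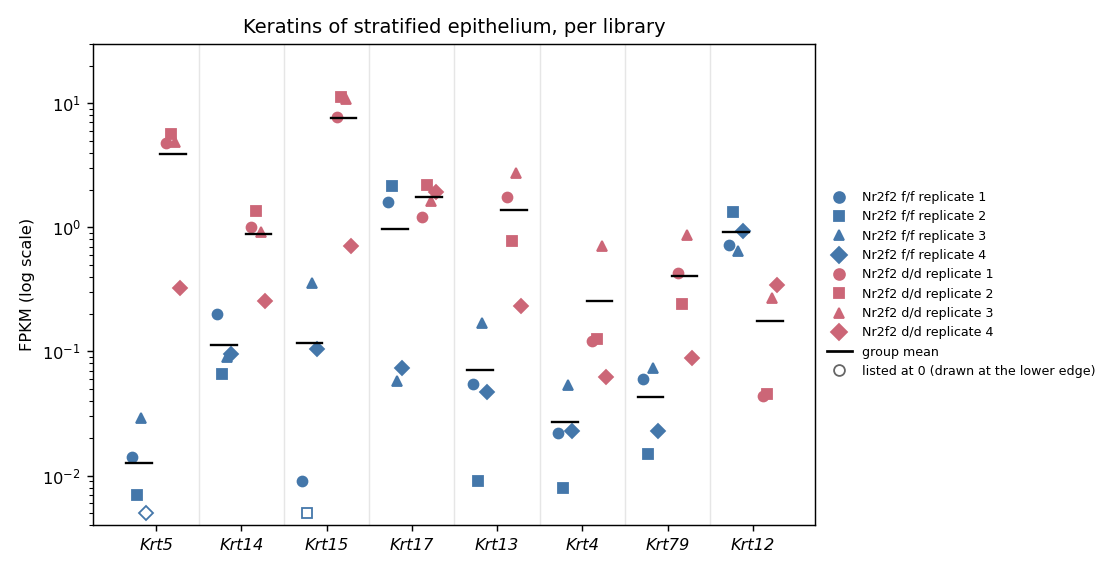
FPKM (log axis) of 8 keratins of stratified epithelium in each library, with the mean of each group as a line; open symbols at the lower edge are values listed at 0. Krt5 and Krt15 are at most 0.029 and 0.358 FPKM in Nr2f2 f/f, and the 4th Nr2f2 d/d library is the lowest Nr2f2 d/d library for every gene but Krt17 and Krt12.

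Among the 14 keratins of the suprabasal or differentiated layers, 4 were tested and 10 lay below the filter. Krt13, the type I keratin of internal stratified linings such as esophagus and vagina, was 0.055, 0.009, 0.17 and 0.047 FPKM in Nr2f2 f/f and 1.77, 0.774, 2.76 and 0.234 FPKM in Nr2f2 d/d. The groups did not overlap, and the 4th Nr2f2 d/d library lay close to the highest control. Its log2 fold change was 1.52 ± 0.42 (SE, adjusted p = 0.096, limma) and 1.90 (adjusted p = 0.0337) without the 4th Nr2f2 d/d library. With any other library left out the adjusted p of Krt13 was 0.137 to 0.207. Krt4, its type II partner, lay below the filter at 0.022, 0.008, 0.054 and 0.023 FPKM in Nr2f2 f/f and 0.121, 0.125, 0.708 and 0.062 FPKM in Nr2f2 d/d, again without overlap. Krt79, found in the upper hair follicle, was the highest of the class below the filter, with 0.015 to 0.073 FPKM in Nr2f2 f/f and 0.089 to 0.869 FPKM in Nr2f2 d/d.

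Krt12, the type I keratin of the corneal epithelium, went the other way. It was 0.717, 1.34, 0.65 and 0.929 FPKM in Nr2f2 f/f and 0.044, 0.045, 0.268 and 0.344 FPKM in Nr2f2 d/d, with no overlap. It fell by 1.06 ± 0.21 on the log2 scale (SE, adjusted p = 0.0451, limma), a call that held without the 4th Nr2f2 d/d library (adjusted p = 0.0437) and was lost when any 1 of the other 7 was left out (up to 0.134). The call was also lost with 0.1 FPKM added, at -2.01 ± 0.44 (SE, adjusted p = 0.0555), and without a filter, at -1.06 (adjusted p = 0.0519). An antisense gene, A830036E02Rik, covers 54.4% of the exon bases of Krt12, and the kit used for the libraries (TruSeq RNA Library Prep kit v2) does not keep the strand, so fragments of the shared part cannot be told apart. A830036E02Rik was 0.075 to 0.319 FPKM in Nr2f2 f/f and 0.009 to 0.081 FPKM in Nr2f2 d/d.

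Krt10, the main type I keratin of the upper epidermis, was 4.52, 2.39, 6.04 and 10.3 FPKM in Nr2f2 f/f and 2.86, 2.96, 2.51 and 9.47 FPKM in Nr2f2 d/d. Its groups overlapped (log2 fold change -0.39 ± 0.49, SE; adjusted p = 0.684). The value was -0.79 without the 4th Nr2f2 d/d library, -0.71 without the 2nd and -0.08 without the 4th Nr2f2 f/f library. Its type II partner Krt1 averaged 0.0748 and 0.102 FPKM. Krt80, a type II keratin of many differentiated epithelia, was 1.28, 5.06, 1.21 and 1.402 FPKM in Nr2f2 f/f and 2.75, 3.09, 3.33 and 1.53 FPKM in Nr2f2 d/d. Apart from 1 high control, the Nr2f2 d/d libraries were the higher ones (0.37 ± 0.40, SE, adjusted p = 0.627). The value was 0.78 without that control, 0.57 without the 4th Nr2f2 d/d library and as low as 0.21 with another library left out.

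Krt23, an atypical type I keratin, was 24.0, 30.1, 20.1 and 23.9 FPKM in Nr2f2 f/f and 7.89, 6.91, 11.9 and 19.5 FPKM in Nr2f2 d/d. All Nr2f2 d/d libraries were lower than all controls, the 4th only just. In log2 terms the difference was -1.15 ± 0.30 (SE, adjusted p = 0.0806, limma) and -1.43 (adjusted p = 0.0249) without the 4th Nr2f2 d/d library. With any other library left out the adjusted p was 0.122 to 0.190. Relative to the epithelial markers the difference was -1.41 (adjusted p = 0.0136), under a scaling that moved the median of all genes to -0.28. The Krt23 share of keratin FPKM was 5.01% to 6.46% in Nr2f2 f/f and 1.28% to 3.26% in Nr2f2 d/d. Krt222, a keratin-related gene, averaged 0.411 and 0.446 FPKM and was not tested.

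Of the 26 keratins of hair and root sheath, only Krt83 and Krt87 were tested, and neither passed a threshold by limma, nor an unadjusted p of 0.05 (0 of 2). Krt83, a type II hair keratin, was 24.2, 19.5, 13.7 and 12.4 FPKM in Nr2f2 f/f and 6.87, 13.3, 16.5 and 18.7 FPKM in Nr2f2 d/d, which overlapped (-0.37 ± 0.33, SE; adjusted p = 0.554). The value was -0.07 without the 1st Nr2f2 d/d library and -0.53 without the 4th, the ends of the range with each library left out. Krt87 was 0.485, 0.445, 0.316 and 0.294 FPKM in Nr2f2 f/f and 0.452, 0.438, 1.34 and 0.82 FPKM in Nr2f2 d/d (0.46 ± 0.23, SE; adjusted p = 0.285), and the value was 0.26 without the 3rd Nr2f2 d/d library. No hair keratin below the filter exceeded 0.458 FPKM in any library, and Krt85 had the highest mean, at 0.294 FPKM in Nr2f2 d/d. Type II hair keratins such as Krt81, Krt83 and Krt86 are close copies, and their values are uncertain to the extent that fragments were counted for the wrong copy.

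Without overlap between the groups were 5 of the 14 tested keratins on the higher side (Krt5, Krt8, Krt13, Krt15 and Krt19; 5.49% of all genes tested) and 2 on the lower side (Krt12 and Krt23; 9.91%). Among the 9 keratins that passed the filter in both groups, 2 (Krt8 and Krt19) were on the higher side and 1 (Krt23) on the lower side. Of the 32 keratins below the filter that were above 0 in at least 1 library, 6 were higher in every Nr2f2 d/d library than in any control (Krt4, Krt14, Krt79, Krt81, Krt86 and Krt90) and 0 lower. The shares among the 6747 genes of this kind were 4.59% higher and 2.79% lower. Krt81 was at 0 in all controls and at about 1 and 2 fragments in the 2nd and 4th Nr2f2 d/d libraries, under 3 fragments. The 4 keratins whose symbols end in a letter (Krt6a, Krt6b, Krt33a and Krt33b), which the rule leaves out, summed to at most 0.01 FPKM in Nr2f2 f/f and 0.11 FPKM in Nr2f2 d/d.

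Genes that work beside keratins were taken from lists. For these and the marker lists that follow, the shares over all genes tested were 1.09% higher and 1.53% lower at an adjusted p under 0.05, and 8.66% higher and 12.5% lower at an unadjusted p under 0.05. Of 15 tested genes of desmosomes and plakins, which anchor keratin filaments, 1 was higher at an adjusted p under 0.05 and 0 lower (limma; 5 higher and 0 lower at an unadjusted p under 0.05), with a median log2 fold change of 0.22. The 1 was Dsc2, a desmosomal cadherin, at 2.69 to 4.89 FPKM in Nr2f2 f/f and 7.22 to 10.9 FPKM in Nr2f2 d/d (1.21 ± 0.20, SE; adjusted p = 0.0249). Among 12 tested regulators of keratin genes, 1 was higher and 0 lower (2 and 0 unadjusted), with a median of 0.25. This was Elf3, an epithelial ETS factor, at 11.9 to 24.8 FPKM in Nr2f2 f/f and 37.2 to 74.8 FPKM in Nr2f2 d/d (1.43 ± 0.28, SE; adjusted p = 0.0415). Of 9 other intermediate filament genes, 0 passed in either direction by limma (2 higher and 1 lower unadjusted), with a median of 0.02. Vim, the filament of mesenchymal cells, was 276 to 497 FPKM in Nr2f2 f/f and 204 to 301 FPKM in Nr2f2 d/d, which overlapped (-0.66, adjusted p = 0.113).

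Markers of the cell types that could carry keratins were read beside these results. Of 12 epithelial markers, 1 (Elf3, also in the list of regulators) was higher and 0 lower (4 and 0 unadjusted, Elf3, Rab25, Cldn7 and Cdh1), with a median log2 fold change of 0.27 and summed levels of 612 to 710 FPKM in Nr2f2 f/f and 605 to 842 FPKM in Nr2f2 d/d. Epcam differed by 0.06 (adjusted p = 0.877) and Cdh1 by 0.30 (adjusted p = 0.231). Mesothelial cells, which cover the uterus and also carry simple-epithelial keratins, were marked by 7 tested genes, of which 1 was higher and 0 lower (6 and 0 unadjusted), with a median of 0.47 and sums of 73.5 to 102 FPKM and 94.4 to 119 FPKM. Msln was 6.99 to 12.2 FPKM in Nr2f2 f/f and 15.1 to 18.1 FPKM in Nr2f2 d/d (0.80, adjusted p = 0.0398), and Upk3b was 0.66 higher (adjusted p = 0.106). Wt1, a large part of these sums at 32.7 to 52.2 and 29.1 to 34.8 FPKM, was the 1 mesothelial marker that went down (-0.31, adjusted p = 0.257). The part of these markers in the simple-keratin results was not tested.

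Of 19 listed genes of stratified epithelium other than keratins, 7 were tested and 0 passed in either direction by limma (2 higher and 1 lower unadjusted), with a median log2 fold change of 0.71. Their summed level was 7.93 to 14.5 FPKM in Nr2f2 f/f and 12.6 to 32.8 FPKM in Nr2f2 d/d, and the 4th Nr2f2 d/d library was the lowest of its group. Sprr1a, a cornified envelope protein, was 0.941, 0.164, 0.227 and 0.206 FPKM in Nr2f2 f/f and 4.57, 4.42, 12.9 and 0.571 FPKM in Nr2f2 d/d (2.38, adjusted p = 0.105). It passed the filter through its Nr2f2 d/d level alone, so it had to differ in its means, and it is 1 of the 2 higher genes above. Trp63, the defining transcription factor of basal cells, was low in both groups and not tested, at 0.183 to 0.308 FPKM and 0.244 to 0.384 FPKM. Lor, another cornified envelope protein, was the 1 lower at an unadjusted p under 0.05 (-0.40, adjusted p = 0.133). Sprr1a and Lor were chosen after their values were seen. The part of stratified epithelium in the basal-keratin results was not tested.

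Markers of other cells moved as well. In Nr2f2 d/d, 4 of 8 endothelial markers were lower and 0 higher by limma (7 and 0 unadjusted), with a median of -0.72, the 3 with the smallest p being Cdh5 (-0.99), Pecam1 (-0.90) and Emcn (-0.70). Of 10 stromal markers, Dcn (0.79, adjusted p = 0.0192) was higher and Hand2 (-0.71, adjusted p = 0.0388) lower (4 higher and 2 lower unadjusted), and of 9 gland markers Spink1 was lower (adjusted p = 0.0292) and 0 higher (2 lower and 0 higher unadjusted). The gland protease Prss29, whose fragments may be shared with its close copy Prss28, was 244, 1444, 2.80 and 2.05 FPKM in Nr2f2 f/f. The 1st and 2nd controls thus stood above the 3rd and 4th, as for Krt17, while for Krt19 they stood below. In Nr2f2 d/d Prss29 was 0.041, 1.35, 0.146 and 41.6 FPKM, with the 4th library far above the others. It was chosen after its values were seen. Of the tested smooth muscle (8), leukocyte (8), oviduct (4) and ovary (3) markers, 0 passed in either direction by limma, with 0, 2, 0 and 1 higher and 0 lower at an unadjusted p under 0.05. Cd3e, 1 of the 2 leukocyte markers, averaged 0.28 FPKM in Nr2f2 f/f and 0.73 FPKM in Nr2f2 d/d. It thus passed the filter through its Nr2f2 d/d level alone. The part of these cell types in the keratin results was not tested.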

How the data were processed

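RNA from uterine tissue of 8 mice was sequenced as 76-base paired-end reads. To obtain the FPKM values deposited for each gene, the authors used cutadapt 1.12, STAR 2.5.2b (build mm10) and featureCounts 1.5.0-p1, and Cufflinks 2.0.2 is also named. The versions are from the submitters' processing notes. The library kit does not mark strand, and the annotation used for counting is not given in the sources used here. The study tested counts, which were not used here. Because FPKM are relative to a library's total, a change in very abundant transcripts shifts all others.

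Groups and replicate numbers came from the sample titles, and the labels number the libraries differently. Each library's value column was matched by its label, and 0 columns were unmatched. Libraries are taken as separate mice. If they were not, p-values measure only technical spread. A gene was tested where its FPKM averaged 0.5 or more across the 8 libraries, which 14323 of 24963 did (3893 were at 0 throughout). Values were fitted as log2(FPKM + 0.5) with limma 3.58.1 in R 4.3.3 (two-sided, eBayes with trend) and Benjamini-Hochberg adjustment over all genes tested. In simulated data of the same 14323 genes for this comparison, the model recovered 92 of 100 genes changed 4-fold and 76 of 100 changed 2-fold. It made 175 calls, 7 of them wrong.

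Library totals were recovered from short genes of 1 exon, where 80.2% to 84.4% of 320 to 364 values came within 0.1 of a whole fragment at 1 total (medians of 13.3% to 14.9% at other totals). The gene length comes from GENCODE vM21, so fragment numbers are approximate. Floors cover counting error only. No count test was run, since whole reads could be recovered only for such genes. GENCODE vM21 matched 50 of the 51 keratins. Sequences are from RefSeq on GRCm38.p6, whose coordinates are those of mm10.

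Every simple-epithelial and basal keratin and every other tested keratin is named with its value per library. Other keratins are named where highest in their class or where groups did not overlap, and list genes where an adjusted p was under 0.05 (3 with the smallest p at most) or as defining markers. Sprr1a, Lor, Rab25, Cldn7, Wt1, Cd3e, Prss29 and A830036E02Rik were chosen after their values were seen. The keratins, the gene lists and the tests were chosen with earlier results of these data known. Alternatives were other pseudocounts, filters, scalings and limma options, a replicate block and leaving out each library. Tables and plots used Python 3.11.15, and the exact permutation test ran over all arrangements of the 8 libraries.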

Additional observations from a re-analysis of the deposited data

Results flagged for a closer look

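In 4 of 32 groups of 4 libraries, 1 library lay far from the other 3 of its group by a test of the gap over the range, which chance alone does in about 1 of 20 groups. Krt5 in the 4th Nr2f2 d/d library was 0.322 FPKM, where the others were 4.81 to 5.65 FPKM. Krt7 in the 3rd Nr2f2 d/d library was 135 FPKM, where the others were 62.5 to 71.5 FPKM. Krt10 in the 4th Nr2f2 d/d library was 9.47 FPKM, where the others were 2.51 to 2.96 FPKM, and 1 control reached 10.3 FPKM. Krt80 in the 2nd Nr2f2 f/f library was 5.06 FPKM, where the others were 1.21 to 1.402 FPKM.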

How the results depend on the processing

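The number of keratins with an adjusted p under 0.05, which was 3 (Krt8, Krt12 and Krt15), was 1 without a filter and 1 with a mean of at least 1 FPKM (Krt8 in both), and 6 relative to the epithelial markers, which moved the median of all genes to -0.28. It ranged from 1 to 6 with each library left out: 1 (Krt8) in 7 fits, which have fewer samples, and 6 (Krt5, Krt8, Krt12, Krt13, Krt15 and Krt23) without the 4th Nr2f2 d/d library. With the replicate block it was 0 by limma, by title numbers and by label numbers, with adjusted p for Krt8 of 0.0867 and 0.103. At the study threshold, which uses unadjusted p, the block left 7 and 10 keratins. Libraries with the same number did not deviate together (correlations of -0.20 to 0.05 by title and -0.20 to 0.15 by label, none highest for its own number). These correlations are too few to tell whether such libraries share a batch. By label, only the numbers 1, 3 and 5 occur in both groups. The count at the study threshold, 8, stayed between 6 and 10 in every alternative run. The Krt18 fold change was -0.0682 after quantile normalization, -0.20 relative to the epithelial markers and -0.0475 to 0.24 with each library left out, and the cause was not tested. Of the other values of single keratins under the alternatives, 224 kept direction and side of the threshold, 27 lost the call and 7 gained it. A count of 3 fragments corresponds to 0.00461 to 0.0541 FPKM, depending on the keratin's length and the library. Relative to the epithelial markers Krt8 was 0.48.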
